A study of Mus musculus with 4 samples.

Results

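The cytosolic ribosomal protein genes were examined in LSK cells, a sorted bone marrow fraction (lineage markers absent, Sca1 and Kit present) in which blood stem cells and the earliest progenitors are found. The genes were taken by symbol from the deposited count table: every name formed of Rpl or Rps and a number, with the usual paralog suffixes, plus Rpsa, Rplp0, Rplp1 and Rplp2. This gave 85 of the 24421 genes, 52 of the large subunit and 33 of the small subunit. The symbol rule also takes in testis or muscle paralogs such as Rpl10l and Rpl3l, and it leaves out genes such as Fau and Gnb2l1, which encode ribosomal components under other names. Messenger RNA had been sequenced from LSK cells of mice aged 13 to 15 months, in 2 libraries from p53R248W/+ animals and 2 from wild-type (WT) animals. p53R248W/+ denotes heterozygosity for a missense allele of Trp53 that alters the part of p53 that contacts DNA. The sources used here do not give how the allele was made or whether a library came from 1 animal. P-values thus measure only how these libraries vary, and that variation may be technical.

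A ribosome is built from ribosomal RNA and one copy each of most ribosomal proteins, so that cells normally make these proteins in near-equal numbers. Their mRNAs are abundant, short and often begin with a terminal oligopyrimidine tract, a C followed by a run of pyrimidines, through which mTORC1 signalling controls their translation. When ribosome assembly fails, Rpl5 and Rpl11, together with the 5S ribosomal RNA, bind Mdm2 and stabilise p53. Loss of 1 copy of several ribosomal protein genes causes Diamond-Blackfan anaemia in people, and RPS14 lies in the region lost in the 5q- syndrome. Blood stem cells are known for a low and tightly held rate of protein synthesis.

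The libraries held 12111126 to 14820759 counted reads. The sorted-cell markers were present, with Kit at 1182 and 1105 CPM in p53R248W/+ libraries and at 911 and 998 CPM in WT libraries (CPM, counts per 1000000 reads after TMM scaling of library size). All 8 LSK markers were above the low-count filter. Of the erythroid markers, Hba-a1, Hba-a2, Hbb-bs and Hbb-bt were at 0 counts in every library. So were the B cell gene Pax5 and the T cell gene Cd3g. How reads with several alignments were counted is not given, so 0 counts alone do not show that these RNAs were absent. The whole erythroid list of 8 genes summed to 24.4 and 15.3 CPM in p53R248W/+ libraries and 25.04 and 23.8 CPM in WT libraries, mostly from Car1 and Epor. The T and NK cell list summed to 2.29 and 4.21 CPM in p53R248W/+ and 1.33 and 7.79 CPM in WT. One library stood apart on the granulocyte and monocyte list, of which 7 of 8 genes were matched. The list summed to 787 and 671 CPM in p53R248W/+ libraries, against 1500.1 and 424 CPM in WT libraries, and Mpo made up most of it. S100a8 and S100a9 of the same list were lowest in WT replicate 1, the library with the highest sum. B cell markers summed to 25.8 and 18.5 CPM in p53R248W/+ libraries, above the 6.83 and 10.4 CPM of WT libraries. Gene counts do not separate the alleles of Trp53 and so do not check the genotype.

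Ribosomal protein genes took 2.93% and 2.63% of all counts in the p53R248W/+ libraries, against 3.20% and 2.76% in the WT libraries. The means were 2.78% ± 0.212 in p53R248W/+ and 2.98% ± 0.317 in WT (SD, n = 2 each). The groups overlapped, and the difference of -0.199 percentage points was smaller than the spread within either genotype. With 2 libraries per genotype an exact two-sided permutation test cannot give a p below 0.333. Large subunit genes held 1.65% ± 0.0876 in p53R248W/+ and 1.77% ± 0.174 in WT, and small subunit genes 1.13% ± 0.125 and 1.21% ± 0.143 in the same order (SD, n = 2 each). The ratio of large to small subunit counts was 1.41 and 1.53 in p53R248W/+ libraries and 1.44 and 1.48 in WT libraries, so the WT values lay inside the p53R248W/+ range. In bulk samples fewer cells of a type and less RNA per cell cannot be told apart.

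**Figure D1:**
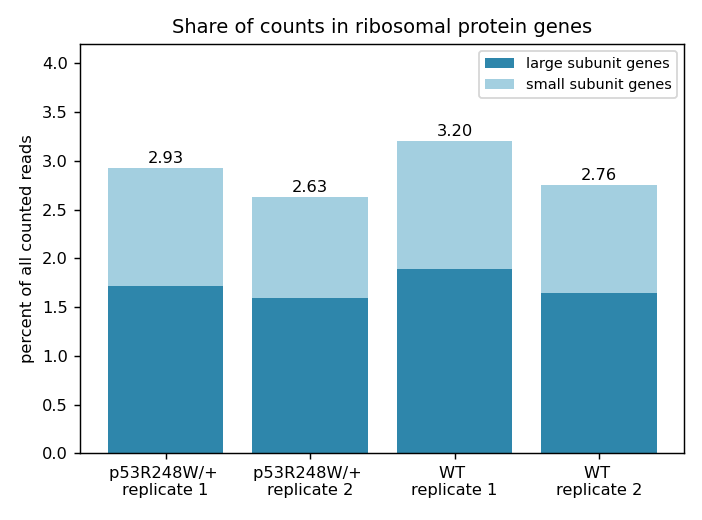
Percent of all counted reads in ribosomal protein genes (vertical axis) in each library, split into large and small subunit genes. WT replicate 1 is highest at 3.20% and p53R248W/+ replicate 2 lowest at 2.63%, with the other libraries between them.

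Levels among the genes were compared as CPM per kilobase of exon. Over the 79 genes that passed the low-count filter the mean level ran from 1.94 to 1444 CPM per kilobase, with a median of 377 and quartiles of 209 and 616. The highest were Rps4x, the X-linked small subunit gene, at 1444, Rpl4, a core large subunit protein that reaches the exit tunnel, at 1354, and Rpl32 at 1103 CPM per kilobase. Rps4x was at 1367 and 963 CPM in p53R248W/+ libraries, against 1600.4 and 1129.6 CPM in WT libraries. Rpl32 varied least of these 3, at 569 and 535 CPM in p53R248W/+ and 558 and 562 CPM in WT. Within a gene the 4 libraries were close: the range of log2 CPM over the libraries had a median of 0.35 and an upper quartile of 0.48.

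**Figure D2:**
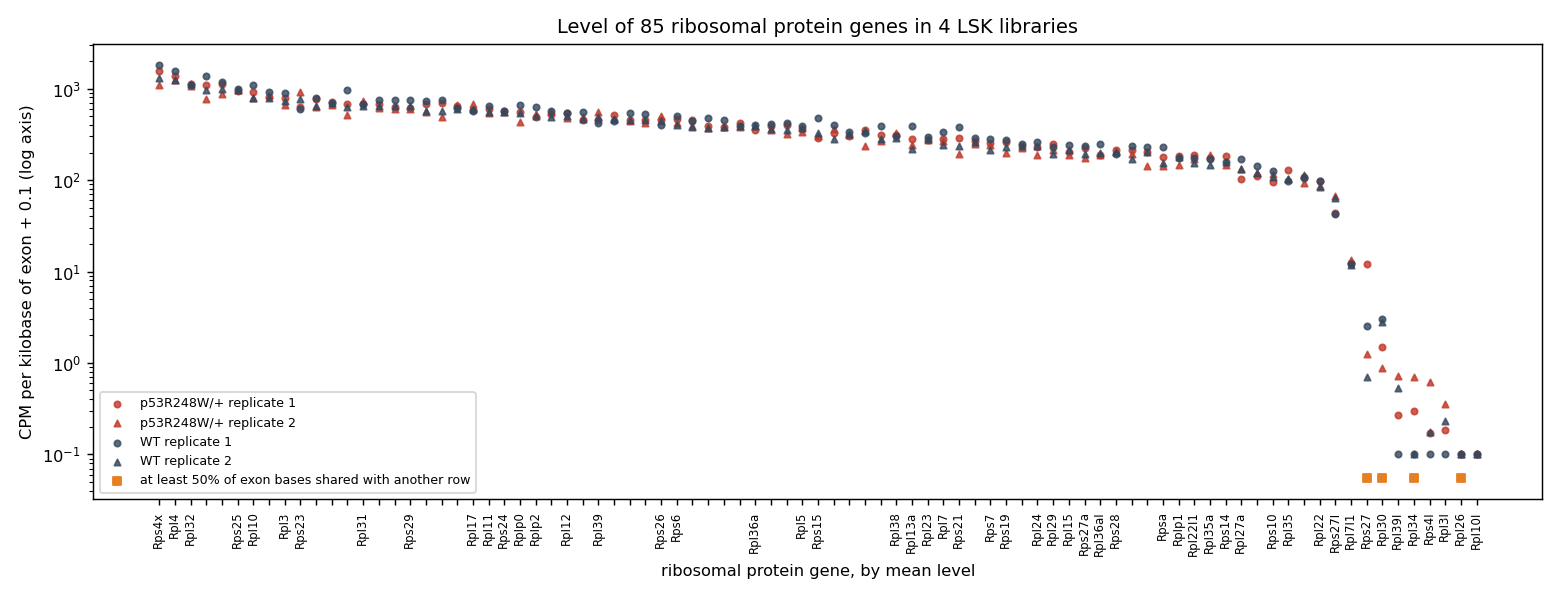
Level of each of the 85 genes in CPM per kilobase of exon plus 0.1 (vertical log axis), ordered by mean level, with labels for the genes described in the text; red marks p53R248W/+, dark blue WT, circles replicate 1 and triangles replicate 2. Most genes lie within about 1 order of magnitude of each other, and the 4 genes marked by squares, which share at least 50% of their exon bases with another row of the table, sit at the low end.

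The low end of this order held both rarely expressed paralogs and genes that every cell needs. The paralogs Rpl10l, Rpl39l, Rpl3l and Rps4l did not pass the filter and had at most 6 counts in any library; Rpl10l and Rpl3l are known from testis and from heart and skeletal muscle. Rpl26 was listed at 0 in all 4 libraries and Rpl34 had 2 and 5 counts in p53R248W/+ libraries against 0 and 0 in WT. These 6 genes were not tested. Rpl30 had 13 and 6 counts in p53R248W/+ and 26 and 24 in WT, and Rps27 had 102 and 8 counts in p53R248W/+ and 20 and 5 in WT. Both passed the filter at this level.

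These 4 low genes with general roles were the only 4 of the 85 whose exons overlapped another row of the table over at least 50% of their length. In mm10 coordinates Rpl26 (chromosome 11, 68901566 to 68904534, plus strand) shared 520 of 543 exon bases with Gm15772, and Rpl30 (chromosome 15, 34440508 to 34443276, minus strand) shared 476 of 626 with Gm12191. Rpl34 (chromosome 3, 130726827 to 130730398, minus strand) shared 413 of 689 exon bases with Rpl34-ps1, and Rps27 (chromosome 3, 90212667 to 90213648, minus strand) shared 345 of 575 with Rps27rt. The overlapping rows were themselves empty, with 0 counts in every library except 1 count of Gm12191 in p53R248W/+ replicate 2. Overlap of smaller extent went with ordinary counts. Rpl5 shared 47.7% of its exon bases with Fam69a, Rpl31 33.1% with Tbc1d8 and Rps25 29.4% with Ccdc84, and all 3 were above 300 CPM per kilobase. The sources used here do not say how reads on overlapping genes were counted, and the part of the overlap in these counts was not tested.

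Sequence shared with the transcripts of other genes was a further property of the family. Of the 50-base words in the annotated protein-coding transcripts, a median of 64.2% per gene occurred in the transcripts of no other gene, over 84 of the 85 genes, with a range from 4.91% for Rpl35 to 100%. For 55 ribosome assembly factors, fixed as a list and treated alike, the median was 99.7%. With 100-base words the medians were 75.6% and 100% in the same order. The sources used here do not say how reads with several alignments were counted, so counts of single genes with much shared sequence are uncertain. The shares of all counts summed over the family carry the same limit. Across the 79 tested genes the share of unique words had a Spearman rho of -0.155 with the mean level per kilobase and of -0.0623 with the log2 fold change. These are descriptions across genes of the same libraries.

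The base sequence at the annotated start was read from RefSeq promoter windows of GRCm38.p6, the assembly called mm10 in the deposited table, which matched 64 of the 85 genes. A C followed by at least 4 pyrimidines (C or T), beginning within 5 bases of the annotated start on the transcribed strand, was found in 28 of the 64, or 43.8%, against 19% of 17189 windows of the same length. Exactly at the annotated start the shares were 18.8% and 2.33% in the same order. The letters CCGGAAG, the core of an ETS family site, were present on either strand of the 300-base window in 39.1% of the ribosomal protein genes and 11.9% of all windows. Among the 10017 windows of genes that passed the low-count filter, the shares were 20.1% for the tract and 18.3% for CCGGAAG. These genes were not matched to the ribosomal protein genes in level, and the 64 windows include those of untested genes such as Rpl26. The core letters of a YY1 site, AAGATGG, were in 15.6% of the ribosomal protein gene windows, against 6.6% of all windows and 7.44% of the windows of tested genes. CACGTG, an E-box, was in 7.81%, against 8.2% and 10.3% in the same order. TATAAA in the 50 bases before the start was in 1.56%, which is 1 gene, against 3.35% of all windows and 1.51% of those of tested genes. A match is only a description of these letters. The following windows run from 15 bases before to 15 bases from the annotated start, which is base 16, in the direction of transcription, with the pyrimidine tract in capitals. They are shown because they contrast genes that differ in this feature within the stalk and within the Rpl22 pair, and because they include genes at the ends of the fold changes and replicate differences given further on.
Rplp2, chr7:141447636-141447665, plus strand: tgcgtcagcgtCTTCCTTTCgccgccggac
Rplp0, chr5:115559452-115559481, plus strand: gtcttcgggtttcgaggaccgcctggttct
Rpl22l1, chr3:28805493-28805522, plus strand: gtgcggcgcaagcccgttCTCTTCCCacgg
Rpl22, chr4:152324421-152324450, plus strand: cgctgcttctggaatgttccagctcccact
Rpl27a, chr7:109519180-109519209, plus strand: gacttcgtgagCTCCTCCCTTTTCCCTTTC
Rps23, chr13:90923107-90923136, plus strand: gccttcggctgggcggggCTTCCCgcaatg
Rps6, the target of S6 kinase in mTORC1 signalling, had the tract as well, whereas Rpl5 and Rpl11 had none within 5 bases of their annotated starts. The RefSeq start of Rpl11 lies 22 bases from the first base of the gene in the deposited annotation, and 56 of the 64 windows start within 5 bases of that base, so a tract can be missed or found by the choice of start. The 27 tested genes with the tract had a median log2 fold change of p53R248W/+ over WT of -0.02, and the 32 tested genes without it of -0.10.

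The comparison of genotypes asked whether transcripts of the ribosome differ in aged LSK cells that carry the mutant allele. No ribosomal protein gene passed an adjusted p of 0.05 in edgeR's quasi-likelihood test, 0 of 79 higher and 0 of 79 lower, against 0% of the 13296 genes tested in either direction. At an unadjusted p under 0.05 there was 1 gene, lower, against 3.01% of all tested genes higher and 2.86% lower. DESeq2 and limma-voom also called 0 of the 79, against 6 and 0 of all 13296 tested genes. At an unadjusted p under 0.05 they had 0 and 2 of the 79, against 787 and 618 of the 13296. The median log2 fold change of the 79 genes was -0.08, against -8.8e-05 over all tested genes, and 55 of 79 were below 0, against 50% of all tested genes. This median depended on single libraries: it was 0.03 without WT replicate 1, with 31 of 79 genes below 0, and the median of all tested genes was then also 0.03. It was -0.02 without p53R248W/+ replicate 2, with 43 of 79 genes below 0, -0.14 without p53R248W/+ replicate 1 and -0.18 without WT replicate 2, where all tested genes were at -0.04, -0.04 and 0.06 in the same order. Large subunit genes had 35 of 47 and small subunit genes 20 of 32 below 0.

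The intervals of most of these genes were narrow beside those of all tested genes, which was not particular to this family. All 68 tested genes with a mean of at least 100 CPM had a log2 fold change within ±0.5, and the 95% interval of each lay between -1 and 1. The median standard error was 0.19 over the 79 genes, whose median level was 262 CPM, and 0.46 over all tested genes. It was 0.165 over 19 translation factors and similar genes with terminal oligopyrimidine mRNAs. Rpl30 and Rps27, with few counts, had standard errors of 1.21 and 1.23. Both p53R248W/+ libraries lay below both WT libraries for 14 of 79 genes, or 17.7%, against 16.6% of all tested genes. Both lay above for 5 of 79, or 6.33%, against 16.9%.

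**Figure D3:**
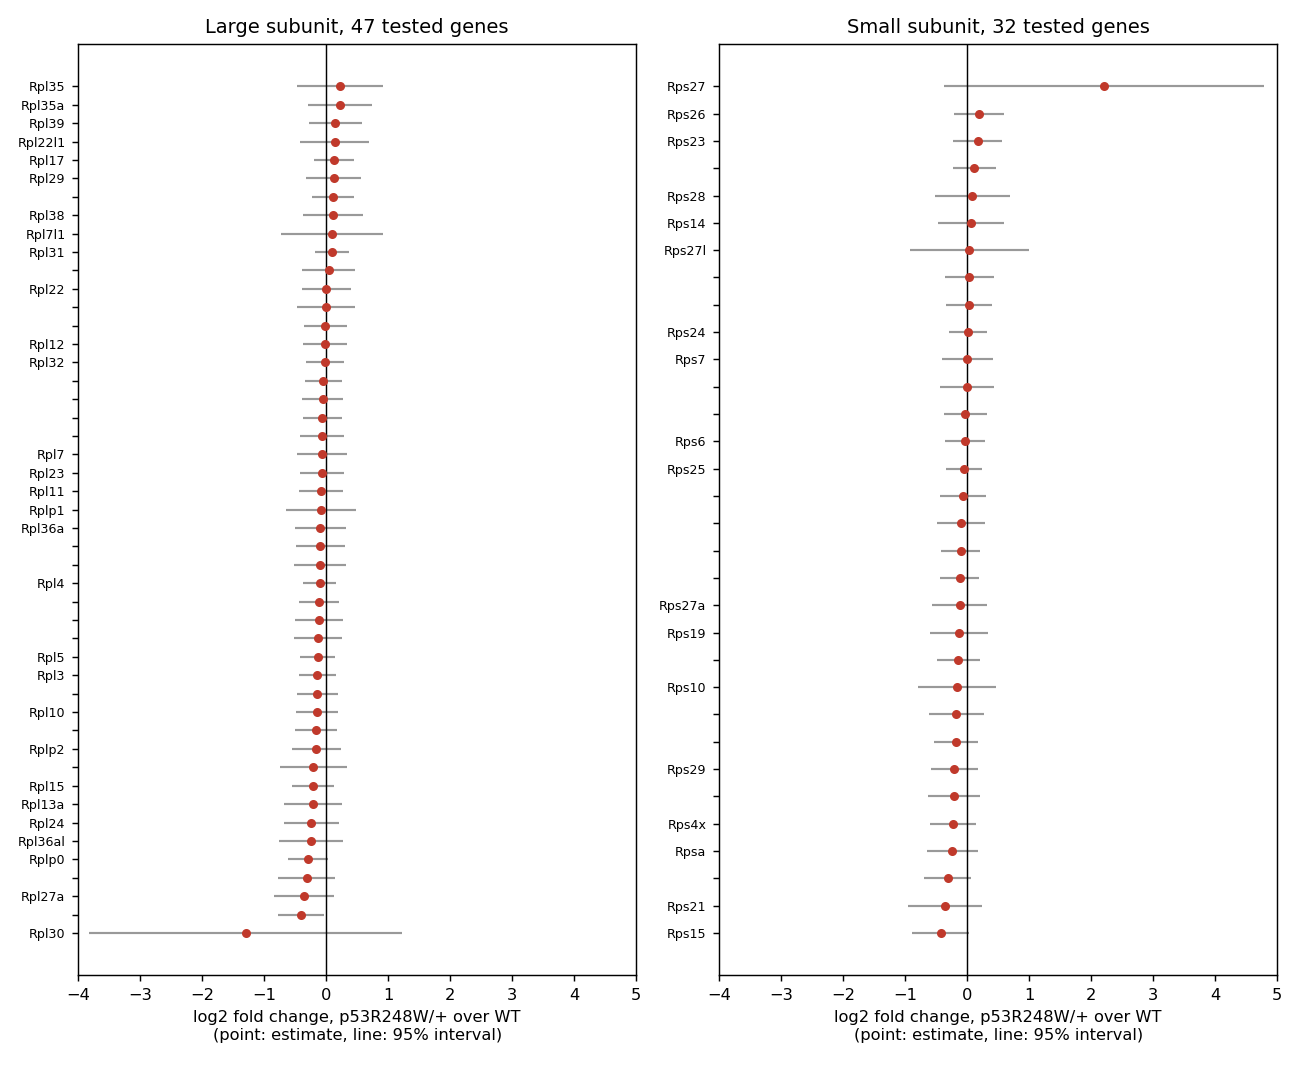
Log2 fold change of p53R248W/+ over WT (points) with 95% interval (lines) for the 47 large and 32 small subunit genes tested, of which those described in the text are labelled. All points but those of Rpl30 and Rps27 lie within ±0.5, and these 2 genes have few counts and wide intervals.

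Among genes with a mean of at least 5 CPM, those with the smallest p-values were on the lower side. Rps15, a small subunit protein whose gene is mutated in some human chronic lymphocytic leukaemias, was at 151 and 159.7 CPM in p53R248W/+ and 247 and 170.3 CPM in WT. Its groups did not overlap, with WT replicate 1 far above the other 3 libraries, and the log2 fold change was -0.43 ± 0.22 (SE; n = 2 in each genotype), with a 95% interval from -0.88 to 0.03 and an adjusted p of 0.824 in the edgeR quasi-likelihood test. It was -0.13 without WT replicate 1 and -0.66 without WT replicate 2. Rpl27a, whose loss of 1 copy activates p53 in mice, was at 113 and 149 CPM in p53R248W/+ and 187 and 147 CPM in WT (-0.36 ± 0.23, SE; -0.56 to -0.17 with 1 library left out). The p53R248W/+ libraries enclosed WT replicate 2, and WT replicate 1 was the highest. Neither value passed after adjustment over all genes.

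On the higher side, again among genes with a mean of at least 5 CPM, log2 fold changes were at most 0.22; Rps27, with fewer counts, is given with its paralog. Rps26 had 206 and 227 CPM in p53R248W/+ libraries, above the 179.9 and 199 CPM of WT libraries, and a log2 fold change of 0.19 ± 0.19 (SE). Rpl35a was at 105 and 113 CPM in p53R248W/+ and 101 and 86.1 CPM in WT (0.22 ± 0.25, SE), also without overlap. Both are Diamond-Blackfan anaemia genes in people. Rps23, a protein of the decoding centre, was at 348 and 509 CPM in p53R248W/+ and 331 and 430 CPM in WT (0.17 ± 0.19, SE). The values were 0.12 ± 0.15 for Rpl17 and 0.15 ± 0.20 for Rpl39, a small protein of the exit tunnel (SE). The groups of these last 3 genes overlapped, and no gene on this side had an unadjusted p under 0.05.

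The stalk, through which the ribosome recruits its elongation factors, is formed by Rplp0, Rplp1 and Rplp2 on a base that includes Rpl12. Rplp0 was at 747 and 590.3 CPM in p53R248W/+ libraries and 904 and 733 CPM in WT libraries, with a log2 fold change of -0.29 ± 0.15 (SE; adjusted p = 0.825, edgeR quasi-likelihood test). Only p53R248W/+ replicate 1 reached the WT range. The log2 fold change of Rplp0 was -0.13 without WT replicate 1 and also without p53R248W/+ replicate 2, and -0.47 without p53R248W/+ replicate 1. Rplp2 was at 216 and 232 CPM in p53R248W/+ and 279 and 223 CPM in WT (-0.16 ± 0.19, SE). Rplp1 was at 86.3 and 69.0 CPM in p53R248W/+ and 82.2 and 83.3 CPM in WT. Rpl12 was at 349 and 308 CPM in p53R248W/+ and 343 and 323 CPM in WT. For Rplp1, Rplp2 and Rpl12 the direction turned when 1 library was left out.

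Rpl5, Rpl11, Rpl23 and Rps7, whose proteins bind Mdm2, had small log2 fold changes. Rpl5 (chromosome 5, 107900528 to 107909005, plus strand) was at 727 and 669.5 CPM in p53R248W/+ and 781 and 757 CPM in WT. Its groups did not overlap, and its log2 fold change was -0.14 ± 0.14 (SE), with a 95% interval from -0.42 to 0.15. Rpl11 (chromosome 4, 136049948 to 136053371, minus strand) was at 358 and 318 CPM in p53R248W/+ and 388 and 327 CPM in WT, or -0.08 ± 0.17 (SE). The groups of Rpl11 overlapped. Rpl23, another protein that binds Mdm2, was at 289 and 293 CPM in p53R248W/+ and 315 and 297 CPM in WT, or -0.07 ± 0.17 (SE). Rps7, also known to bind Mdm2, was at 244 and 229 CPM in p53R248W/+ and 269 and 202 CPM in WT, or 0.0058 ± 0.19 (SE). The log2 fold changes of Rpl11 and Rps7 turned in sign when single libraries were left out.

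Among 9 small subunit genes tied to Diamond-Blackfan anaemia or the 5q- syndrome, 6 had log2 fold changes above 0 and 3 below, with a median of 0.01. Rps19, the gene most often mutated in Diamond-Blackfan anaemia, was at 163 and 124 CPM in p53R248W/+ and 173 and 144 CPM in WT (-0.14 ± 0.22, SE). Rps14 was at 108 and 87.1 CPM in p53R248W/+ and 93.2 and 94.4 CPM in WT (0.07 ± 0.25, SE), so that the p53R248W/+ libraries enclosed the WT libraries. Rps29 was at 237 and 233 CPM in p53R248W/+, below the 294 and 249 CPM of WT. Rps24 stood at 498 and 489 CPM in p53R248W/+ and 492 and 486 CPM in WT. Rps10 and Rps28 had log2 fold changes of -0.16 ± 0.30 and 0.08 ± 0.29 (SE).

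Of 9 large subunit genes chosen for ties to p53 or to blood, 8 were tested, with 4 log2 fold changes above 0 and 4 below and a median of -0.03; Rpl26 was the gene at 0 counts. Rpl15, a Diamond-Blackfan anaemia gene, was at 372 and 349.8 CPM in p53R248W/+ and 447 and 390.1 CPM in WT (-0.21 ± 0.16, SE), without overlap. Rpl24, mutated in the Belly spot and tail mouse, was at 157 and 126 CPM in p53R248W/+ and 175 and 160.1 CPM in WT (-0.24 ± 0.21, SE), also without overlap. Rpl38, which supports translation of Hox mRNAs in mouse embryos, was at 114 and 121 CPM in p53R248W/+ and 111 and 107 CPM in WT (0.11 ± 0.23, SE). Rpl29, which mice can live without, was at 0.12 ± 0.21 (SE).

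Several members form pairs of paralogs. Rpl22, required for T cell development in mice, was at 241 and 216 CPM in p53R248W/+ and 245 and 211 CPM in WT, a log2 fold change of 0.0037 ± 0.19 (SE). Its paralog Rpl22l1 was at 88.9 and 81.5 CPM in p53R248W/+ and 82.7 and 72.7 CPM in WT (0.14 ± 0.27, SE). In both, the groups overlapped. Per kilobase of exon the order was the reverse of that in CPM, with Rpl22l1 at 171 and Rpl22 at 91.5 CPM per kilobase, because the Rpl22 row spans 2497 exon bases and the Rpl22l1 row 477.

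Rps27l, a direct p53 target and paralog of Rps27, was at 20.2 and 31.1 CPM in p53R248W/+ and 19.5 and 29.7 CPM in WT, a log2 fold change of 0.03 ± 0.46 (SE). Both replicates 2 were above both replicates 1, whichever the genotype. Rps27 had a log2 fold change of 2.21 ± 1.23 (SE; adjusted p = 0.825, edgeR quasi-likelihood test), which came from the 102 counts of p53R248W/+ replicate 1. Without that library the value was -0.40.

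The other pairs differed in level but not detectably between genotypes. Rpl7l1 was at 31.7 and 34.9 CPM in p53R248W/+ and 31.3 and 30.8 CPM in WT, and Rpl7 at 262 and 249 CPM against 309.7 and 226 CPM in the same order. Rpl36al was at 97.0 and 96.3 CPM in p53R248W/+, below the 127 and 102 CPM of WT (-0.25 ± 0.24, SE). Its partner Rpl36a was at 174 and 190.7 CPM in p53R248W/+ and 197 and 191 CPM in WT. The broadly expressed partners of the near-empty paralogs had log2 fold changes of -0.14 ± 0.14 for Rpl3, -0.15 ± 0.16 for Rpl10 and -0.23 ± 0.17 for Rps4x (SE). The most counted gene, Rpl4, was at 1933 and 1777 CPM in p53R248W/+ and 2238 and 1752 CPM in WT (-0.10 ± 0.13, SE). Rps27a, which is made as a fusion with ubiquitin, was at 182 and 144 CPM in p53R248W/+ and 195 and 159.7 CPM in WT (-0.12 ± 0.21, SE).

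A pattern by library ran through these genes. WT replicate 1 held the highest value for 53 of the 79 tested genes, or 67.1%, against 28.3% of all tested genes. p53R248W/+ replicate 2 held the lowest for 40, or 50.6%, against 22.7% of all tested genes. The median deviation of the 79 genes from their means over the libraries was 0.02 and -0.09 on the log2 scale in p53R248W/+ replicates 1 and 2, and 0.17 and -0.06 in WT replicates 1 and 2. Over all tested genes the same medians lay between 0.0062 and 0.016. WT replicate 1, where these genes were highest, was also the library with the highest sum of granulocyte and monocyte markers, 1500.1 CPM, while p53R248W/+ replicate 2, where they were most often lowest, had 671 CPM and WT replicate 2 had 424 CPM. The part of those cells in the result was not tested.

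**Figure D4:**
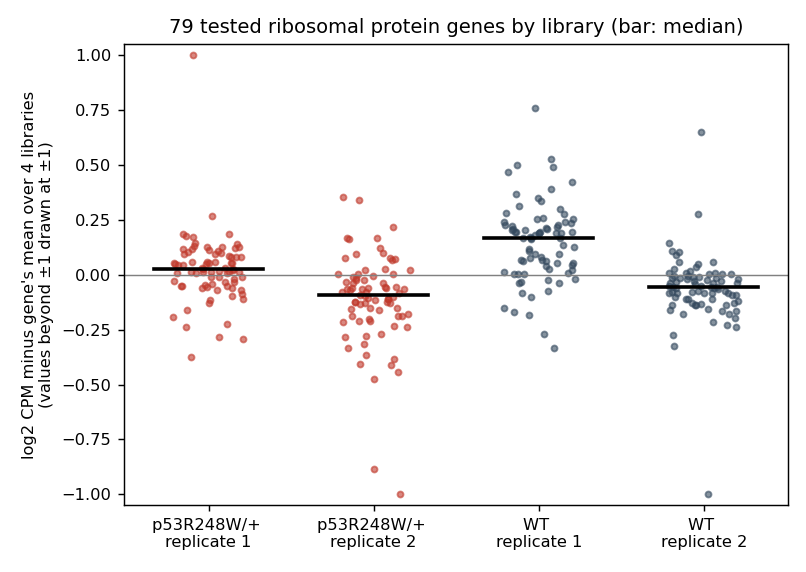
Log2 CPM of each of the 79 tested genes minus its mean over the 4 libraries (vertical axis, values beyond ±1 drawn at ±1), by library, with the median as a bar. The medians are 0.02 and -0.09 in p53R248W/+ replicates 1 and 2 and 0.17 and -0.06 in WT replicates 1 and 2.

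Within each genotype the library numbered 1 tended to be the higher one. Replicate 1 exceeded replicate 2 for 56 of 79 genes in p53R248W/+, by a median of 0.12 on the log2 scale, and for 65 of 79 in WT, by a median of 0.23. Replicate 1 was higher in both genotypes for 47 of the 79 genes (59.5%) and replicate 2 in both for 5 (6.33%), where the shares over all tested genes were 25.3% and 25.6%. These joint counts follow largely from the 56 and 65 genes given for each genotype alone, so they add little on agreement between the genotypes. Across the 77 genes with a mean of at least 5 CPM the replicate differences of the genotypes correlated at r = 0.457, while over all 13296 tested genes r was -0.0105. These are correlations across genes that share 4 libraries, given as descriptions. The extremes were picked after their values were seen. Rps21 was at 113 and 75.2 CPM in p53R248W/+ and 150.1 and 92.9 CPM in WT, and Rpl13a lay towards the same end. In the other direction stood Rps27l, Rps23 and Rpl39, for which replicate 2 was higher in both genotypes. Nothing in the labels ties libraries of the same number to a shared animal, litter or day.

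**Figure D5:**
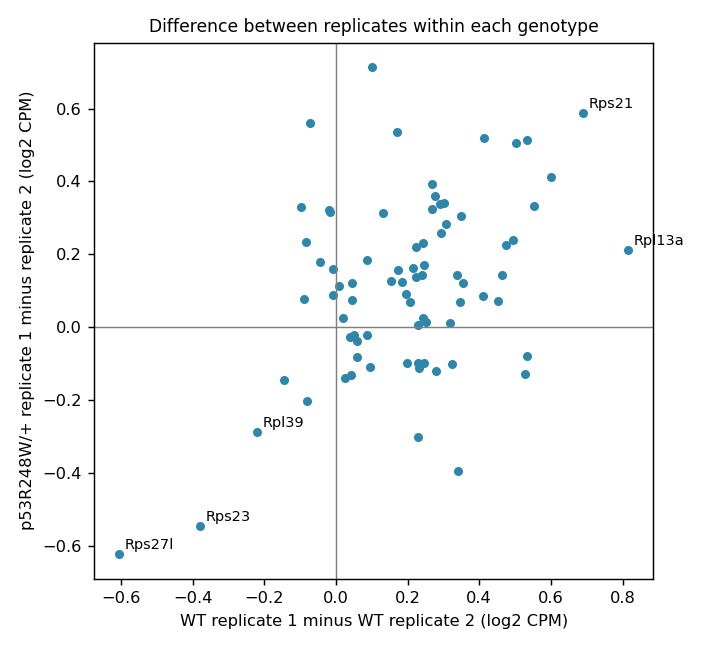
Replicate 1 minus replicate 2 on the log2 CPM scale in WT (horizontal axis) and p53R248W/+ (vertical axis) for the tested genes; Rps27, with a difference above 3 in p53R248W/+, lies outside the axes. Most points fall in the upper right, and Rps27l, Rps23 and Rpl39 lie at the lower left.

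Genes that work with these proteins were read from fixed lists. None of the 116 tested genes of 6 lists passed an adjusted p of 0.05 in the edgeR quasi-likelihood test. Of the subunit genes outside the symbol rule, Gnb2l1, the Rack1 scaffold of the small subunit, was at 354 and 301 CPM in p53R248W/+ and 390.0 and 372 CPM in WT (-0.22 ± 0.16, SE). Fau, which encodes a small subunit protein fused to a ubiquitin-like protein, was at 59.7 and 66.8 CPM in p53R248W/+ and 89.0 and 68.9 CPM in WT. In both the groups did not overlap. Of 19 translation factors and similar genes with terminal oligopyrimidine mRNAs, 14 were below 0, with a median of -0.11. Eef1d, an exchange factor subunit of elongation factor 1, was at 47.9 and 33.9 CPM in p53R248W/+ and 71.1 and 63.8 CPM in WT (-0.70 ± 0.33, SE; adjusted p = 0.824, edgeR quasi-likelihood test). Eef1g, another subunit, was at -0.24 ± 0.14 (SE) on the log2 scale. The 7 snoRNA host genes had a median of -0.05, with Snhg5 at -0.40 ± 0.25 and Snhg1 at -0.28 ± 0.19 (SE).

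Ribosome assembly factors lay lower than the ribosomal proteins themselves in the median. The medians of the pathway lists are not given with single libraries left out, so how far they rest on WT replicate 1 is not shown. Of 55 tested, 37 were below 0 and 18 above, with a median log2 fold change of -0.20, and 20 (36.4%) had both p53R248W/+ libraries below both WT libraries, against 16.6% of all tested genes. Both were above for 5 (9.09%), against 16.9%. Rrp9, a component of the U3 particle, was at 7.76 and 6.11 CPM in p53R248W/+ and 37.3 and 10.5 CPM in WT (-1.77 ± 0.68, SE). Nop2, a ribosomal RNA methyltransferase, was at 20.2 and 26.4 CPM in p53R248W/+ and 65.4 and 29.7 CPM in WT (-1.04 ± 0.44, SE). WT replicate 1 was far above the other libraries for both genes, and without it the log2 fold changes were -0.58 for Rrp9 and -0.36 for Nop2. They were -2.40 and -1.49 in the same order without WT replicate 2. Of 14 genes of RNA polymerase I and its factors, 10 were below 0, with a median of -0.18. The catalytic subunit Polr1a lay on the other side, at 149 and 163 CPM in p53R248W/+ and 96.9 and 131 CPM in WT (0.45 ± 0.23, SE). The polymerase I subunit Cd3eap was at 12.9 and 23.0 CPM in p53R248W/+ and 9.28 and 7.58 CPM in WT. Of 18 genes of mTORC1 and translation initiation, 12 were below 0, with a median of -0.06. Mlst8, an mTOR partner, was at 17.6 and 16.8 CPM in p53R248W/+ and 5.86 and 6.94 CPM in WT (1.43 ± 0.62, SE). Tsc1, which restrains mTORC1, was at 60.6 and 68.7 CPM in p53R248W/+ and 95.1 and 94.2 CPM in WT (-0.56 ± 0.27, SE). The groups did not overlap for either gene, and neither passed the edgeR quasi-likelihood test (adjusted p = 0.824 in each).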

How the data were processed

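The deposited table holds raw read counts per gene symbol, made by the authors, for 24421 genes and 4 libraries. Per the submitters' processing notes, STAR 2.7.10a, featureCounts of Subread 2.0.3, FastQC 0.11.5 and edgeR 3.40.2 were used, with build mm10; strand setting and multiple alignments are not given in the sources used here. Genes were filtered with filterByExpr (minimum count 10, minimum total 15; 13296 kept), scaled by TMM and compared with edgeR 4.0.16 (estimateDisp, glmQLFit with robust=TRUE and legacy=FALSE, glmQLFTest) in R 4.3.3, genotype being the only term (legacy=FALSE was set, after seeing the data, to follow earlier processing of them), with Benjamini-Hochberg adjustment over all tested genes. Standard errors are the log2 fold change over the root of its F statistic. The test was tried on simulated data in which the changed genes were given only large changes. That trial does not show what could be detected at most of the fold changes reported here. The detection floor of 3 counts was 0.202 to 0.248 CPM and covers counting error only. Members and lists were chosen with earlier results of these data known. The genes named were those of fixed role lists, the 5 smallest p per direction, the extremes of level and the untested members. From each pathway list the 2 tested genes with the smallest unadjusted p were named as well. Some genes that this rule names are not reported here. Alternatives were DESeq2 1.42.0, limma-voom (limma 3.58.1), other scalings and filters, a replicate block and leaving out each library.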

Additional observations from a re-analysis of the deposited data

How the results depend on the processing

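No ribosomal protein gene was called under any alternative run. Over all tested genes the count was 0, with 6 in DESeq2. Leaving out each library in turn gave 0 to 1 calls over all genes and 0 for ribosomal protein genes. The median log2 fold change of the ribosomal protein genes ran from -0.18 to 0.03 with 1 library left out, and the share of counts differed by -0.423 to 0.0252 percentage points. The other scalings, filters and tests put the median between -0.09 and -0.07. This range includes 2 alternatives chosen after seeing the data: the legacy quasi-likelihood method (-0.09) and only the genes with at least 50% unique 50-base words (-0.07). A fit that took replicate number as a block passed 0 genes and put the median at -0.09; the numbers do not pair the libraries over all genes (r = -0.0105). Of 55 named genes tested, 35 kept their direction without each library and all kept it under the 9 other alternatives; the stricter filter did not test Rpl30 and Rps27. The log2 fold changes that turned ran, with 1 library left out, from -0.37 to 0.12 for Rpl10, -0.19 to 0.049 for Rpl11, -0.12 to 0.066 for Rpl12, -0.094 to 0.12 for Rpl22, -0.0053 to 0.25 for Rpl29, -0.28 to 0.012 for Rpl3, -0.066 to 0.020 for Rpl32, -0.0029 to 0.29 for Rpl39, -0.26 to 0.084 for Rpl4, -0.27 to 0.17 for Rpl7, -0.26 to 0.059 for Rplp1, -0.31 to 0.0087 for Rplp2, -0.11 to 0.21 for Rps14, -0.35 to 0.039 for Rps19, -0.13 to 0.42 for Rps23, -0.40 to 3.50 for Rps27, -0.30 to 0.033 for Rps27a, -0.29 to 0.38 for Rps27l, -0.50 to 0.046 for Rps4x and -0.18 to 0.23 for Rps7. The cause was not tested. With 2 libraries per genotype, differences may have gone undetected. The 95% intervals given are not adjusted for the number of genes tested and are not limits of detection. That of Mlst8 ran from 0.13 to 2.73, and the gene was still not called.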
